A study of Mus musculus with 6 samples.

Results

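The sodium pump, or Na,K-ATPase, carries sodium out of the cell and potassium into it at the cost of ATP, and in epithelia it sits mainly in the basolateral membrane, where it sustains cell volume and the ion gradients that other transporters use. It is built from a catalytic alpha subunit and a glycosylated beta subunit, which takes the alpha subunit to the membrane and whose outer domain can also bind neighbouring cells. FXYD proteins, named for the amino acids of a shared motif, are small proteins with a single membrane span that bind the pump and tune its affinity and turnover. The 6 genes described here are the beta subunit genes Atp1b1, Atp1b2 and Atp1b3 and the FXYD genes Fxyd3, Fxyd5 and Fxyd6, out of 18194 genes with a probe set of 1 symbol. They were found by symbol in the platform annotation, which gave 11 of the 45101 probe sets: 5 for Atp1b1, 2 for Atp1b2 and 1 for each of the others. Atp1b1 was chosen for its higher signal in the mutant samples, so its difference between the groups is given as a description, without a test.

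The data were 6 Affymetrix mouse arrays of skin RNA at embryonic day 16.5, with 3 Tcfap2c mutant and 3 control samples and 1 array per sample. Tcfap2c, now Tfap2c, encodes the transcription factor AP-2 gamma of the surface ectoderm. The labels give neither the allele, the tissue in which it acts, the strain nor the litters, and the control samples are controls by title while their description field also names the mutation. Values are MAS5 signals scaled to the same trimmed mean of 500.003 on each array, and p-values measure only the spread between these samples. The median signal lay between 110.4 and 131 on all 6 arrays. Precision is limited by the small number of arrays.

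The array of mutant sample 1 differed most from the rest. Its mean correlation with them was 0.94, against 0.961 to 0.97 for each of the others. The summed signal of 6 decidual and uterine markers was 50873 in mutant sample 1 and 652 and 557 in mutant samples 2 and 3, against 303 to 640.1 in control samples. Prap1 (32479) and Prl8a2 (14204) made up most of the sum in mutant sample 1. Of the 6 markers 4 were brightest there, while Dcpp1 (3.55) and Ltf (118) were not. For 6 smooth muscle markers the sum was 60889 in mutant sample 1, against 7432 and 7878 in the other mutant samples and 8200 to 9846 in control samples. Several results are therefore also given without that sample. The signal of Xist, the RNA made from the inactive X chromosome, was 6732, 67.9 and 116 for the 3 mutant samples in order, against 5519.7, 6313 and 119.9 for the 3 control samples. It was thus high in 1 mutant and 2 control samples, and its part in the results was not tested. Of the defining skin markers, 6 of 6 basal and 6 of 6 suprabasal keratinocyte genes were above the signal filter. The basal sum was 34817, 64515 and 52819 in mutant samples 1, 2 and 3, against 52306 to 57584 in control samples. Tfap2c itself differed by 0.01 to 0.14 on the log2 scale over its 3 probe sets, and none passed the test.

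Atp1b1 encodes the beta 1 subunit, the main beta subunit of most epithelia. By its brightest probe set, 1439036_a_at, the signal was 5785, 5868 and 5189 in mutant samples 1, 2 and 3, against 2483, 3561 and 2838 in control samples 1, 2 and 3. All 3 mutant samples lay above all 3 control samples, and the dimmest mutant sample was 1.46 times the brightest control sample. The mutant mean was 5614 ± 371 and the control mean 2961 ± 549.7 (SD, n = 3 each). That is a difference of 0.93 on the log2 scale (SE 0.15), or 1.91-fold. Differences are taken on the log2(signal + 24.5) scale, which understates the change of dim probe sets. In the mutant samples the 3 values were close to each other, with an SD of 0.10 on the log2 scale, while the SD in the control samples was 0.26.

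A further 4 probe sets measured Atp1b1, and 3 of them were bright. Probe set 1418453_a_at gave signals of 1749, 2801 and 2184 in the mutant samples, against 1162, 1261 and 1041 in the control samples. The groups did not overlap, mutant sample 1 was the dimmest of the mutant samples, and the log2 difference was 0.92 (SE 0.18). Probe set 1451152_a_at gave 1798, 2094 and 1932 in the mutant samples, against 1180.45, 1205 and 1298 in the control samples. Both groups were tight here, with SDs of 148 and 62.2 in mutant and control samples, and the log2 difference was 0.65 (SE 0.13). Probe set 1423890_x_at gave 2968, 3333 and 2610.1 in the mutant samples, against 1688, 2326 and 1599 in the control samples. Its groups did not overlap either, but the dimmest mutant sample was only 1.12 times the brightest control sample, and the log2 difference was 0.67 (SE 0.17). The platform annotation assigns this probe set and 1451152_a_at to the same cDNA record, and the _x_at ending marks probes that can also bind other transcripts, so the probe sets are not independent measurements.

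The fifth probe set, 1455949_at, was dim. It read 95.1, 158 and 152 in the mutant samples, against 141, 100.5 and 83.0 in the control samples. The groups overlapped, and the log2 difference was 0.26 (SE 0.28). Its mean over the 6 samples corresponds to a signal of 119, just above the filter of 114 that decided which probe sets were tested, while the brighter Atp1b2 probe set, at 90.4, lay just below it. Thus 4 of 5 Atp1b1 probe sets were higher in every mutant sample than in every control sample, beside 3.3% of the 22518 probe sets tested over the whole array. A further 5.03% of the tested probe sets were lower in every mutant sample than in every control sample. Since Atp1b1 was chosen on this contrast, nothing is read from that count. Over the whole array 118 tested probe sets (0.524%) had a larger positive difference than the brightest Atp1b1 probe set.

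**Figure D1:**
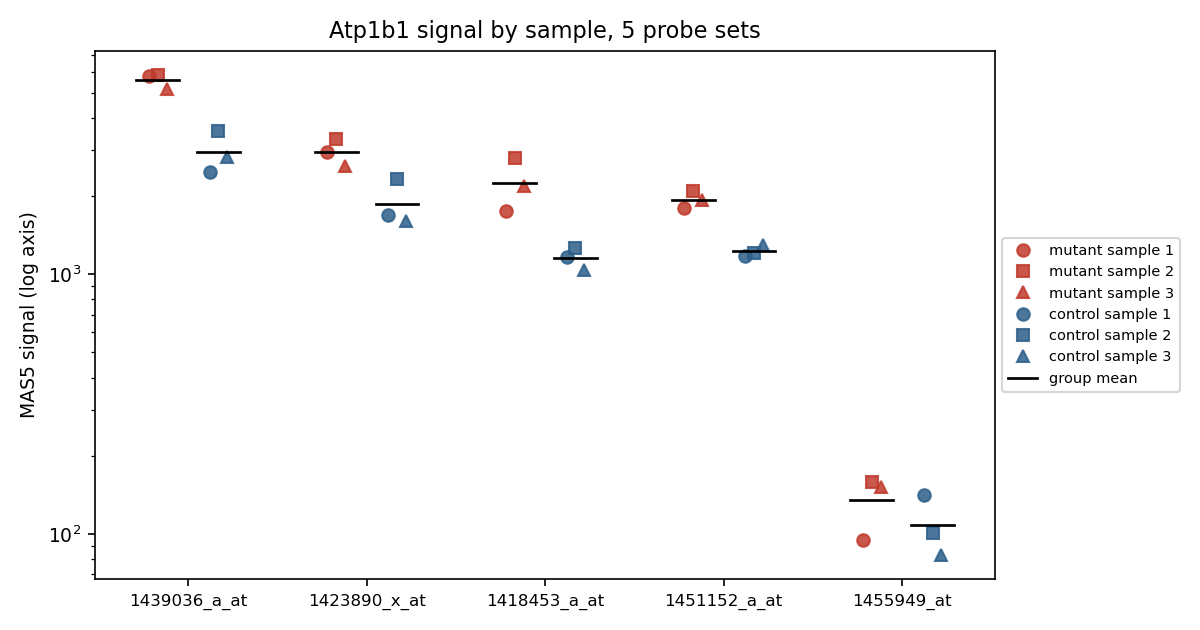
MAS5 signal (log axis) of the 5 Atp1b1 probe sets in each of the 3 mutant (red, left) and 3 control (blue, right) samples, with black lines at the group means. In 4 probe sets the mutant samples lie above all control samples, and in the dim 1455949_at the groups overlap.

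The brighter Atp1b1 probe sets ranked the samples within a group differently. Control sample 2 was the brightest control sample in 1439036_a_at, 1423890_x_at and 1418453_a_at, whereas in 1451152_a_at it was control sample 3. Mutant sample 2 was the brightest mutant sample in all 5 probe sets. After the group means were removed, the values of 1439036_a_at over the 6 samples correlated at 0.87 with those of 1423890_x_at, at 0.24 with 1418453_a_at and at 0.07 with 1451152_a_at. These correlations are descriptions over 6 samples that share arrays.

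Since Atp1b1 was chosen with groups that do not overlap, leaving out a sample cannot turn the sign of its brightest probe set, and the values show only how far its size moves. Without mutant sample 1, the sample with the uterine and smooth muscle transcripts, the brightest probe set differed by 0.91, and 1418453_a_at by 1.09. With each of the 6 samples left out in turn, the brightest probe set lay between 0.81 (without control sample 1) and 1.07 (without control sample 2). The dim probe set 1455949_at stayed positive, between 0.12 and 0.46.

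**Figure D2:**
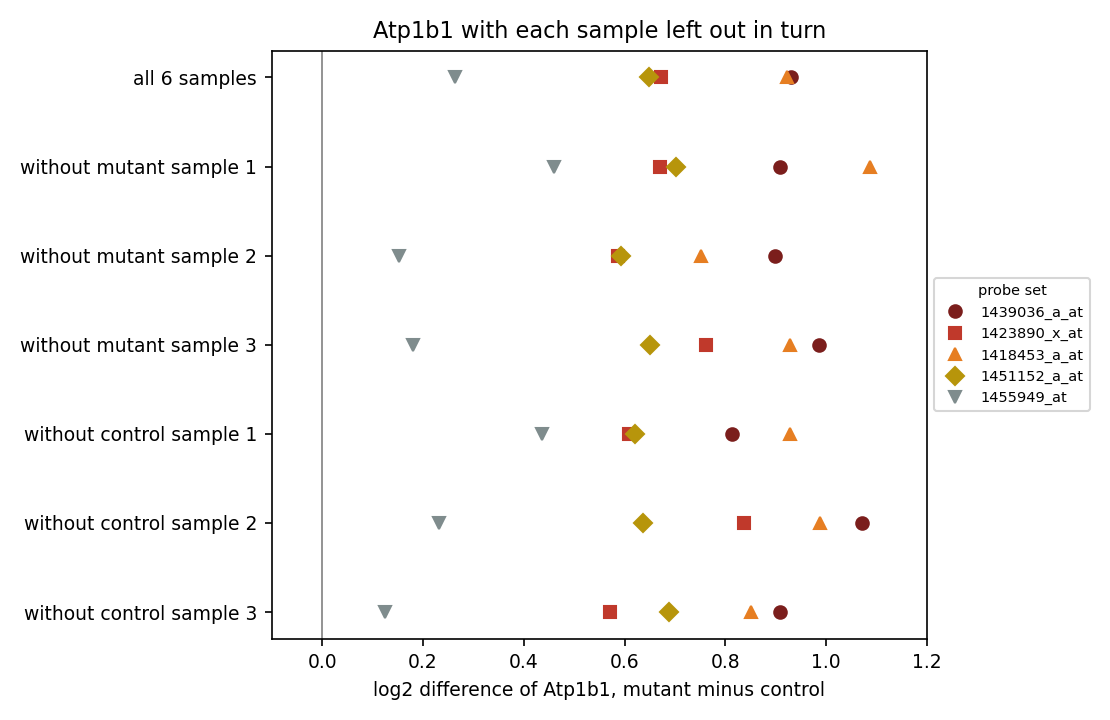
The log2 difference (mutant minus control, x axis) of each Atp1b1 probe set with all 6 samples and with each sample left out in turn (rows). All points lie to the right of 0, with the brightest probe set between 0.81 and 1.07 and the dim 1455949_at between 0.12 and 0.46.

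The 5 genes whose log2 signal followed the brightest Atp1b1 probe set most closely over the 6 samples were Tapt1, Abcg1, Gng4, Mrpl46 and Emb, out of 11588 other tested genes. Pearson's r was 0.99 for Tapt1, a membrane protein of the primary cilium base, and 0.99 for Abcg1, a transporter of cholesterol out of cells. It was 0.98 for Gng4, a G protein gamma subunit, and 0.97 for both Mrpl46, a protein of the mitochondrial ribosome, and Emb, the cell surface glycoprotein embigin. The log2 differences between mutant and control samples were 0.25 for Tapt1, 0.53 for Abcg1, 1.90 for Gng4, 0.17 for Mrpl46 and 1.33 for Emb. None of the 5 passed the test over all probe sets (limma adjusted p of 0.122 for Gng4, 0.201 for Emb and 1.0 for the others). They are the highest of 11588 values over 6 samples, and a difference between the same groups by itself raises such a correlation. Its part in the likeness of these 5 genes was not tested.

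The promoters of the members are shown because the mutated gene encodes a transcription factor whose family binds GC-rich palindromes. RefSeq promoter windows (GRCm38.p6) were matched for 5 of 6 members, and the 250 bases before the annotated start are described. Capitals mark the letters GCCNNNNGGC, a form of the AP-2 site, and GGGCGG or its reverse complement, the GC box bound by Sp1-type factors. The sequences of Atp1b1 (chr1:164458356-164458605, minus strand), the first of 2 Atp1b3 promoters (chr9:96364432-96364681, minus strand) and Fxyd3 (chr7:31076698-31076947, minus strand) are given 5′ to 3′, so that the promoter of the gene with the higher signal can be set beside those of 2 bright members without such a difference.
Atp1b1: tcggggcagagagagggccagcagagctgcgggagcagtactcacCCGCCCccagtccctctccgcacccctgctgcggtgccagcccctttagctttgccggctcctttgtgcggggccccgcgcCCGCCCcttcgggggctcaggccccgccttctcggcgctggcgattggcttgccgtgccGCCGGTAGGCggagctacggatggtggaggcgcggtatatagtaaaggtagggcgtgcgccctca
Atp1b3: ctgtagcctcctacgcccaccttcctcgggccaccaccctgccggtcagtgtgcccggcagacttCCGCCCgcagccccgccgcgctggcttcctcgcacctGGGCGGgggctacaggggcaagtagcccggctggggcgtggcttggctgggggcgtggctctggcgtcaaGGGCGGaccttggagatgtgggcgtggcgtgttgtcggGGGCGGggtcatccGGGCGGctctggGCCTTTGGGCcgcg
Fxyd3: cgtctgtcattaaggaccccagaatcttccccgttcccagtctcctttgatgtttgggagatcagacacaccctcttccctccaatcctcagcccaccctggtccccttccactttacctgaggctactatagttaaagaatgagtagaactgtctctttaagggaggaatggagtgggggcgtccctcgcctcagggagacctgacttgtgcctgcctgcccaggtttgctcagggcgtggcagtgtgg

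The AP-2 core in its usual spacing, GCCNNNGGC, is the same on both strands and did not occur in any of the 6 windows of the 5 members, while 13.7% of all 32851 promoter windows hold it. The form with 1 base more, GCCNNNNGGC, occurred once in the Atp1b1 window, 65 bases before the start, and once in each of the 2 Atp1b3 windows. It occurs in 12.3% of all windows, a share not restricted to windows of like G and C content. Atp1b1 held 2 GC boxes, the first Atp1b3 window 5 and the second 0, against 32.7% of all windows with at least 1. The Atp1b1 window was 70.4% G or C and the 2 Atp1b3 windows 73.6% and 76.8%. The Fxyd3, Fxyd5 and Fxyd6 windows were 55.2%, 55.6% and 50.4%, around the median of 52.4% over all windows. The letters TATAAA, searched on both strands, were in none of the 6 windows and in 12.4% of all. A match of letters is a description and shows no binding, and these windows hold no information on sites elsewhere.

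Of the other 5 members, 0 passed the test over all 22518 probe sets, in either direction. Over the whole array 1 probe set passed limma's test at an adjusted p under 0.05, which is 0.00444%. It belongs to Sftpd, which encodes surfactant protein D, and was higher in the mutant samples (0% lower). Without adjustment 771 probe sets (3.42%) had a p under 0.05, and none of these belonged to the other 5 members. All 6 of their probe sets overlapped between the groups, and 4 of these 6 were above the filter and tested.

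Atp1b3 encodes the beta 3 subunit, which is made in many tissues. It gave signals of 3505, 3989.7 and 3996 in mutant samples 1, 2 and 3, against 4070.2, 3474 and 3424 in control samples 1, 2 and 3. The values of the groups were mixed, with the brightest sample a control, and the coefficient of variation over all 6 samples was 8.12%. The mutant mean was 3830.2 ± 281 and the control mean 3656 ± 359 (SD, n = 3 each). The log2 difference was 0.07 with a 95% interval of -0.22 to 0.36 (limma, adjusted p = 1.0).

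Atp1b2 encodes the beta 2 subunit, best known as an adhesion molecule of glia. Both of its probe sets were below the filter. Probe set 1422009_at had signals of 68.1, 95.6 and 107 in the mutant samples, against 95.8, 70.3 and 113 in the control samples. Probe set 1435148_at had 91.3, 99.7 and 29.1 in the mutant samples, against 81.2, 95.4 and 130 in the control samples. The groups overlapped in both, and mutant sample 3 was low in the second probe set only. The log2 differences were -0.03 (SE 0.32) and -0.45 (SE 0.40) and were not tested. The summed signal of 4 measured Schwann cell and nerve markers was 3643, 3822 and 3222 in the mutant samples, against 3179.7, 3382 and 3267 in the control samples. Erbb3 made up most of each sum, with 2993, 3052 and 2572 in the mutant samples, against 2474, 2659 and 2560 in the control samples. The log2 differences were 0.16 for Erbb3, 0.02 for Sox10, -0.03 for Ngfr and -0.30 for S100b, which was below the filter.

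**Figure D3:**
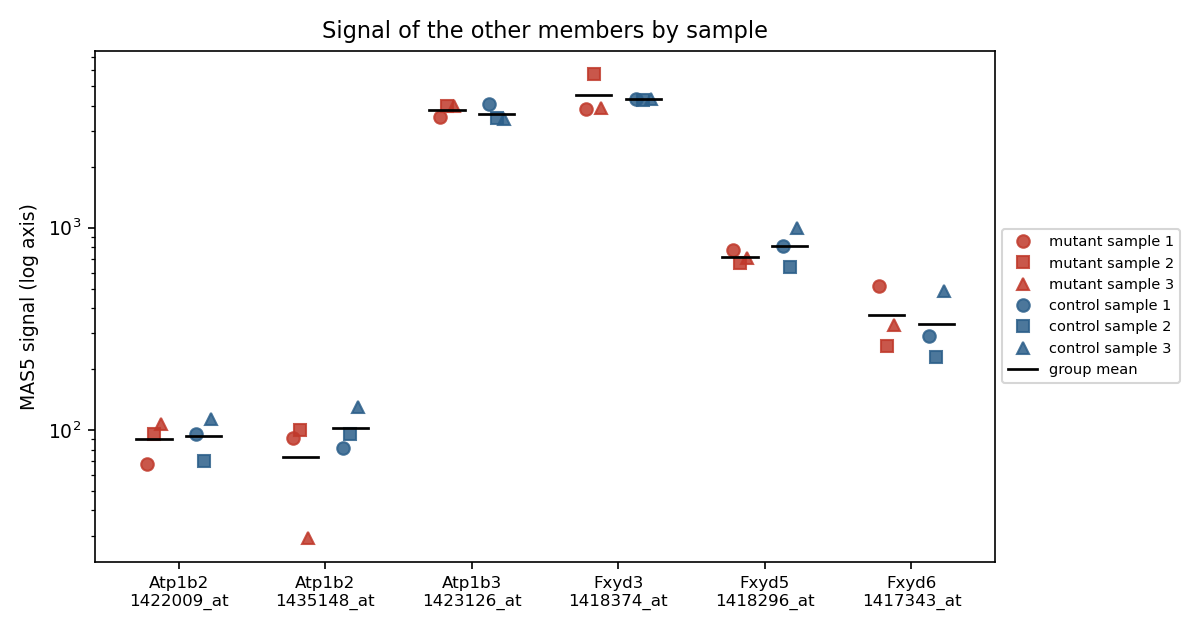
MAS5 signal (log axis) of the 6 probe sets of Atp1b2, Atp1b3, Fxyd3, Fxyd5 and Fxyd6 in each of the 3 mutant (red, left) and 3 control (blue, right) samples, with black lines at the group means. The groups overlap in all 6 probe sets, and the 3 control samples of Fxyd3 coincide near 4302.

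Fxyd3, also known as Mat-8, is an FXYD protein of epithelia first found in mammary tumours. Its signals were 3859, 5747 and 3916 in mutant samples 1, 2 and 3, against 4326, 4280.4 and 4299 in control samples 1, 2 and 3. The control samples were nearly equal, and the mutant samples lay on both sides of them, with mutant sample 2 high. The SD was 1074 in mutant samples and 22.8 in control samples around means of 4507 and 4302 (n = 3 each). The log2 difference was 0.04 with a 95% interval of -0.33 to 0.41 (limma, adjusted p = 1.0), and it was -0.15 without mutant sample 2. The summed signal of the 6 basal keratinocyte markers was also highest in mutant sample 2, at 64515, and 5 of the 6 markers were brightest there, while Itga6 was dimmest there. The sum was 34817 in mutant sample 1 and 52819 in mutant sample 3, where Fxyd3 was at 3859 and 3916, and 52306 to 57584 in control samples. Whether the amount of epidermis has a part in the signal of Fxyd3 was not tested. In whole skin fewer cells of a type and less RNA per cell cannot be told apart.

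Fxyd5 encodes dysadherin, an FXYD protein that lowers E-cadherin adhesion when overproduced. Its signals were 779, 665 and 708 in the mutant samples, against 811, 637 and 991 in the control samples. The mutant values lay within the range of the control values. The mutant mean was 717 ± 57.1 and the control mean 813 ± 177 (SD, n = 3 each). The log2 difference was -0.16 with a 95% interval of -0.57 to 0.26 (limma, adjusted p = 1.0), and it was -0.01 without control sample 3, the brightest sample.

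Fxyd6, or phosphohippolin, is best known from brain and inner ear. The signals were 517, 259 and 330 in mutant samples 1, 2 and 3, against 292, 229 and 486 in control samples 1, 2 and 3. Mutant sample 1 and control sample 3 were high and the other 4 samples low, so the spread within each group was wide, with an SD of 133 in mutant and 134 in control samples. The means were 369 in mutant and 335 in control samples (n = 3 each). The log2 difference was 0.14 with a 95% interval of -0.57 to 0.84 (limma, adjusted p = 1.0), and it was -0.12 without mutant sample 1. The smooth muscle sum was also highest in those samples, at 60889 in mutant sample 1 and 9846 in control sample 3. It was 7432 and 7878 in mutant samples 2 and 3 and 8200 and 8565 in control samples 1 and 2. Control sample 3 was thus only slightly above these, while Fxyd6 was at 517 in mutant sample 1 and 486 in control sample 3. The part of smooth muscle cells in the signal of Fxyd6 was not tested.

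The other genes of the pump and the FXYD family described here are Atp1a4, Atp1b4, Fxyd1, Fxyd2, Fxyd4 and Fxyd7. Of these 6 genes 3 were tested, none passed, 1 difference was positive and 2 were negative, with a median of -0.10 beside -0.02 over all probe sets tested. All 3 were negative without mutant sample 1 (median -0.31) and all 3 positive without mutant sample 2 (median 0.13). Atp1b4, whose product in placental mammals is a protein of the muscle nuclear envelope rather than a pump subunit, had signals of 5474, 2965 and 4089.75 in mutant samples 1, 2 and 3, against 4134, 3997 and 4914 in control samples. The groups overlapped and the log2 difference was -0.10 (SE 0.21). The skeletal muscle sum was lowest, at 45796, in mutant sample 1, where Atp1b4 was brightest, against 51359.5 to 63828 in control samples.

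Fxyd1, or phospholemman, the FXYD protein of heart and muscle, had signals of 1162, 648 and 792 in the mutant samples, against 876, 753 and 860.3 in the control samples. Mutant sample 1 was the brightest and mutant sample 2 the dimmest, and the log2 difference was 0.02 (SE 0.21) with all samples and -0.20 without mutant sample 1. Fxyd4, a channel-inducing factor of kidney and colon, differed by -0.21 (SE 0.27), with 177, 96.3 and 180.1 in the mutant samples, against 179.9, 199 and 145 in the control samples. Fxyd2, the gamma subunit of kidney, had means of 63.4 in mutant and 57.1 in control samples, and Fxyd7, an FXYD protein of brain, 10.09 and 10.02 in mutant and control samples. Both were below the filter. Atp1a4, the alpha subunit of sperm, was below the filter too, with 17.9, 34.4 and 34.2 in the mutant samples, against 5.06, 6.83 and 8.22 in the control samples. These groups did not overlap, but the control values lie below the 20th percentile of all signals, 24.5, and the mutant values around it. No fold is therefore given.

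Fxyd5, Fxyd7 and Fxyd1 are neighbours in the RefSeq annotation, and Fxyd3 lies on the same chromosome, 7. Side by side their log2 differences were -0.16, 0.00, 0.02 and 0.04. Fxyd7 was not tested, and the other 3 did not pass. Fxyd6 and Fxyd2, which neighbour each other on chromosome 9, differed by 0.14 and 0.10.

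**Figure D4:**
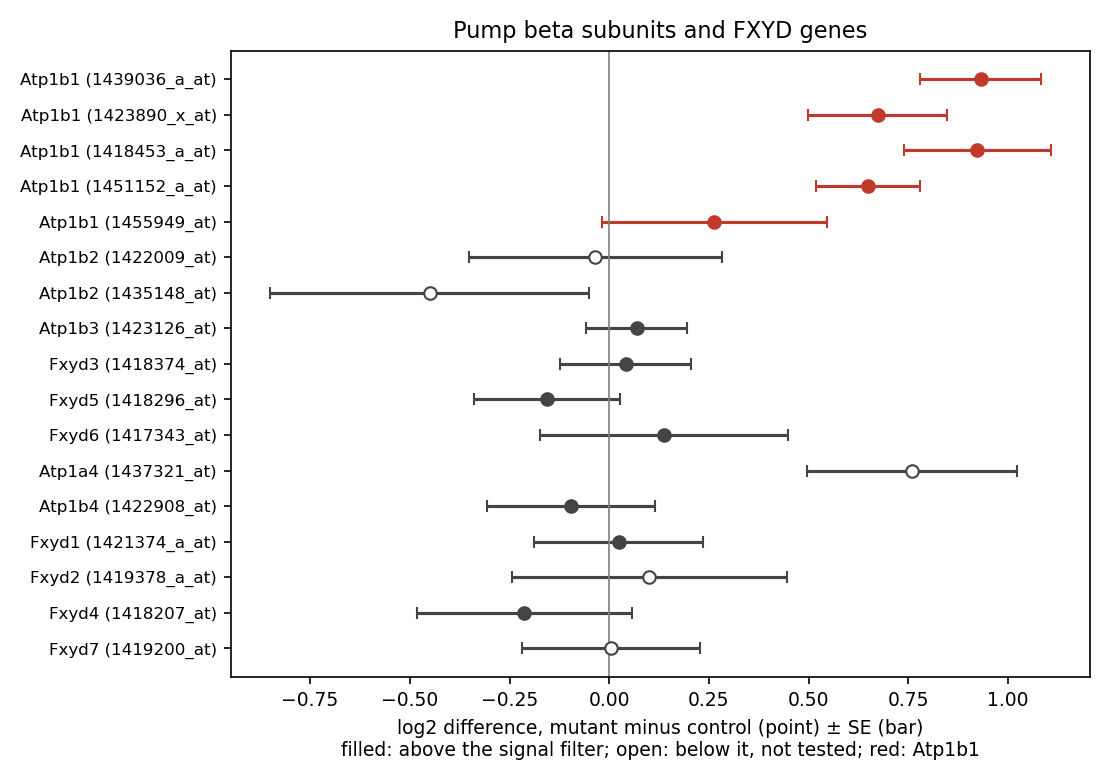
The log2 difference (mutant minus control, x axis, bars ± SE of the fit) of each probe set of the 6 members and of 6 further pump and FXYD genes. Filled points were above the signal filter and open points were not tested. The 4 bright Atp1b1 probe sets lie between 0.65 and 0.93, and the tested probe sets of the other genes between -0.21 and 0.14.

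Genes of sodium and potassium transport that work with the pump in epithelia, and their regulators, were taken as a list of 18 genes, of which 12 were tested. None passed the test over all probe sets, and 0 had an unadjusted p under 0.05. The differences of 11 were positive and of 1 negative, with a median of 0.19, beside 44.4% positive and a median of -0.02 over all probe sets tested. Mutant sample 1 was the brightest of the 6 samples for 7 of the 12 genes. Without it 7 differences were positive and 5 negative, with a median of 0.04, beside 47.7% positive over all probe sets tested.

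Kcnk1, a potassium channel with a pair of pore domains, had signals of 1559, 241 and 302 in mutant samples 1, 2 and 3, against 198, 170 and 219 in control samples 1, 2 and 3. Among the 12 tested genes it was the only gene whose groups did not overlap, beside 8.33% of all probe sets tested. Its log2 difference was 1.23 (SE 0.57, limma adjusted p = 1.0) with all samples and 0.43 without mutant sample 1. Sgk1, the aldosterone-induced kinase that raises sodium channel and pump activity, had signals of 6209, 1388 and 1324 in the mutant samples, against 1111, 1646 and 1395 in the control samples. Only mutant sample 1 was outside the control range, and the log2 difference was 0.71 with it and -0.01 without it. Hsd11b2, which inactivates glucocorticoids in cells that respond to aldosterone, had signals of 2147, 119.9 and 175 in the mutant samples, against 248, 168 and 139.8 in the control samples. Its log2 difference was 0.95 with mutant sample 1 and -0.27 without it. The uterine marker Pgr, the progesterone receptor, was at 2719 in that same sample, against 91.6 and 116 in the other mutant samples and 115 to 128 in control samples, and the part of uterine tissue in these 3 genes was not tested.

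Oxsr1, a kinase of the WNK pathway, differed by 0.28 (SE 0.16). Scnn1a, the alpha subunit of the epithelial sodium channel, differed by 0.27 (SE 0.20), and by 0.42 without mutant sample 1, with signals of 298, 382 and 459 in the mutant samples, against 346, 304 and 273 in the control samples. For Scnn1a mutant samples 2 and 3 lay above all control samples and mutant sample 1 did not. Neither gene passed the test.

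**Figure D5:**
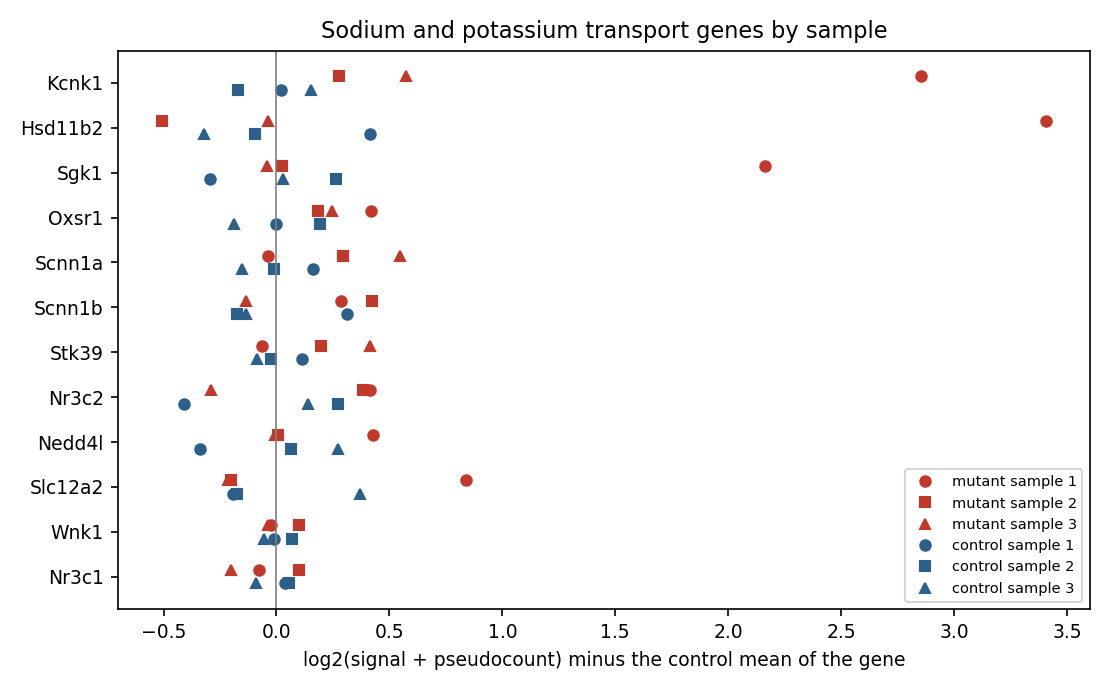
The log2 signal of the 12 tested sodium and potassium transport genes in each sample, set to the control mean of each gene (x axis), with mutant samples in red above and control samples in blue below. Mutant sample 1 (red circles) lies far to the right for Kcnk1, Hsd11b2 and Sgk1, where the log2 differences with all samples are 1.23, 0.95 and 0.71.

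Among relatives and partners of the pump, Nkain1 and Nkain4, which encode membrane proteins that bind its beta subunit, were tested and differed by -0.25 (SE 0.19) and -0.53 (SE 0.33). Their groups overlapped, and without mutant sample 1 the difference of Nkain4 was -0.21. That of Nkain1 was -0.033 as the mean over its probe sets. The other 4 measured genes of that list, the potassium pump genes Atp4a, Atp4b and Atp12a and the gene Nkain2, were below the filter.

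Adherens junction genes were included because beta subunits and dysadherin act on contacts between cells. All 9 were tested and none passed over all probe sets, with 6 positive and 3 negative differences and a median of 0.05, beside 44.4% positive over all probe sets tested. At an unadjusted p under 0.05, 2 were higher in the mutant samples, beside 3.42% of all probe sets in either direction, and the groups of these 2 did not overlap, beside 8.33%. Cdh1, which encodes E-cadherin, had signals of 4924, 5639 and 5650.0 in mutant samples 1, 2 and 3, against 4756, 4235 and 4207 in control samples 1, 2 and 3. Its log2 difference was 0.29 (SE 0.12, limma adjusted p = 1.0). Afdn, the actin-binding junction protein afadin, had signals of 1728, 1375 and 1448 in the mutant samples, against 1065, 1322 and 1071 in the control samples. Its log2 difference was 0.39 (SE 0.15, limma adjusted p = 1.0), and 0.16 as the mean over its probe sets. Ctnna1, Ctnnd1 and Nectin1, which encode alpha catenin, p120 catenin and a nectin, differed by 0.17, -0.27 and -0.22 with all samples, and by 0.076, 0.074 and -0.069 without mutant sample 1.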

How the data were processed

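Skin RNA of 3 Tcfap2c mutant and 3 control samples was hybridised to 1 array each. The deposited intensity values are linear and hold 1 signal per probe set, made with MAS5 (version not given in the sources used here), per the submitters' processing notes. With 2% trimmed from either end, each column had a mean of 500.003, so the deposited values had been scaled per array. Groups came from the titles. No detection calls entered the analysis.

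Signals were analysed as log2(signal + 24.5), the added value being the 20th percentile over the whole table, with no further normalization. After 64 control probe sets were left out, 22518 of 45101 probe sets had a mean log2 above the median and were tested, 9 of 11 for the members. Gene names came from the platform annotation (34958 probe sets with 1 symbol, 932 with several, 9211 with none), updated by gene identifier with RefSeq. The brightest probe set represented a gene in the lists.

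The test was that of limma 3.58.1 (lmFit, then eBayes with trend = TRUE, two-sided p), run in R 4.3.3. The Benjamini-Hochberg adjustment ran over the 22518 probe sets, and the threshold was 0.05. Intervals are 95% and come from that fit. The fit was tested on simulated data. The smallest two-sided p of an exact permutation test in this design is 0.1. Named were all probe sets of the members, the measured genes of the first list, up to 5 of each other list by p, and the 5 genes most like Atp1b1. Nr3c2, Slc12a2 and others of the lists appear in counts and in the plot by sample only. Itga6 and Pgr come from the marker lists and, like Xist, were picked with their values in view. The members and lists were chosen with earlier results of these data known. Figures were drawn with matplotlib 3.10.9.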

Additional observations from a re-analysis of the deposited data

How the results depend on the processing

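The settings tried were pseudocounts of 1 and 100, no filter, a filter at the 75th percentile, quantile normalization, median centring, no variance trend, robust variance, array weights, the replicate number as a block, the mean over the probe sets of a gene, an adjusted p under 0.1, and each sample left out in turn. The count of probe sets past the threshold, 1 in the fit described, was 0 with the stricter filter, which left fewer probe sets, and 106 with array weights. It was 1 to 39 with a sample left out, of which 39 came without mutant sample 1, 3 when control sample 2 was dropped and 2 when mutant sample 2 was. With the replicate block it was 8. The deviations from the group mean of samples with the same number had correlations of -0.052, -0.073 and 0.11, so the numbers were not taken as pairs. Among the other 5 members and the 4 lists, no probe set that was tested passed in any of the 16 settings. In most settings 4 probe sets of these members and 26 of the lists were tested. With the stricter filter they were 3 and 15, and without a filter 6 and 38. Atp1b2, Atp1a4, Fxyd2 and Fxyd7, which lay below the filter, were thus tested only without it.

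The difference of Atp1b1, whose sign the choice of the gene fixed, was 0.69 as the mean over its 5 probe sets and 0.81 to 1.07 with a sample left out. Array weights put most of the mutant mean on mutant sample 3 (3.13, against 0.257 and 0.56 for mutant samples 1 and 2).

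Differences of other genes that changed sign were not past the threshold, and the cause was not tested. With a sample left out, the range was -0.18 to 0.11 for Atp1b2 (1422009_at), -0.15 to 0.14 for Fxyd3, -0.12 to 0.42 for Fxyd6, -0.31 to 0.13 for Atp1b4, -0.20 to 0.21 for Fxyd1, -0.054 to 0.29 for Fxyd2, -0.34 to 0.038 for Fxyd4 and -0.056 to 0.040 for Fxyd7. It was -0.011 to 1.09 for Sgk1 and -0.27 to 1.68 for Hsd11b2, each lowest without mutant sample 1, which is the sample where both were far brighter. It was -0.44 to 0.074 for Ctnnd1, -0.45 to 0.16 for Nectin1 and -0.12 to 0.14 for the adherens junction median. With array weights Atp1b2 (1422009_at) was at 0.078, Fxyd3 at -0.0019, Fxyd1 at -0.039 and Fxyd2 at -0.057. Fxyd7 was at -0.026 with quantile normalization and -0.0069 with median centring, and Nectin1 at 0.55 as the mean over its probe sets. Without mutant sample 1, Atp1b3 was at 0.13, Fxyd3 at 0.14, Atp1b4 at -0.31, Fxyd4 at -0.33 and the dim Atp1b1 probe set at 0.46. The median of all probe sets, -0.025, became -0.017 under quantile normalization and -0.036 under median centring.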
